A study of Mus musculus with 12 samples.

Results

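The Ms4a family members described here were Ms4a4a, Ms4a4b, Ms4a4c, Ms4a6b, Ms4a6c, Ms4a6d and Ms4a7, 7 of the 46078 genes counted. They were taken by symbol from the rows whose Ensembl identifier maps to those names, and they are 7 of the 19 annotated mouse genes whose symbol starts with Ms4a. All 7 passed the filter on low counts. The sequenced messenger RNA came from macrophages grown out of bone marrow over 7 days, with supernatant of L929 cells as the source of macrophage growth factor. The cells came from male C57BL/6 mice, and every group was on the ApoE-/- background. There were 3 libraries in each of 4 groups, called Dicer KO LPS, control LPS, Dicer KO vehicle and control vehicle. Dicer KO cells were titled LysMcre/+;Dicerfl/fl;ApoE-/-, with Cre driven from the LysM (Lyz2) locus of myeloid cells, and control cells LysMcre/+;Dicer+/+;ApoE-/-. All cultures had dilute ethanol overnight. They then had 6 h of phosphate-buffered saline (vehicle) or of lipopolysaccharide (LPS), a bacterial cell wall component sensed by TLR4, labelled 100 ng/ul. Whether a group's libraries stem from different animals is not stated in the labels, so p-values measure only the spread between these samples, which may be technical.

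Ms4a proteins are small tetraspan proteins of the cell membrane, with both ends in the cytoplasm. The best-known members are CD20, the B cell antigen encoded by Ms4a1, and the beta chain of the high-affinity IgE receptor, encoded by Ms4a2. In mouse macrophages Ms4a4a associates with dectin-1, a receptor for fungal beta-glucan, and human MS4A4A and MS4A6A lie in a locus linked to Alzheimer's disease and to soluble TREM2.

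All 7 genes lie on mouse chromosome 19 between 11321039 and 11604849 (GRCm38), inside a cluster of all 19 Ms4a genes that spans chr19:10962293-11640851. Ms4a7 (chr19:11321039-11336146) and Ms4a6d (chr19:11586604-11604849) are annotated on the minus strand. Ms4a4a (chr19:11375523-11392790), Ms4a4c (chr19:11404770-11427246), Ms4a4b (chr19:11443553-11467055), Ms4a6c (chr19:11469366-11482192) and Ms4a6b (chr19:11516512-11531256) are on the plus strand. The coding sequences fall into close pairs, with 91.7% identity between Ms4a4c and Ms4a4b over 678 aligned bases and 85.4% between Ms4a6c and Ms4a6b over 642. Ms4a6d had 81.2% identity with Ms4a6b and 79% with Ms4a6c. Every pair that joined Ms4a7 or Ms4a4a to another member had at most 68.2%.

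Promoter windows of 300 bases, 250 before and 50 after the start annotated in RefSeq (GRCm38.p6), were found for 6 of the 7 genes. For Ms4a4c and Ms4a6b the window lies inside the gene span given above, which begins at 11404770 and 11516512. Those windows therefore do not cover the first bases of the spans. The windows of 5 are shown because the pairs alike in coding sequence were also alike there, while genes of each pair differed in level. A further reason is that Ms4a4a differed between genotypes in the opposite direction to Ms4a4c beside it. Capitals mark the 9-letter pattern GAAANNGAA, a short form of the interferon-stimulated response element, in Ms4a6c and Ms4a6b. In Ms4a4a they mark an NF-kappaB pattern, GGG, then 2 bases of any kind, then TTTCC. The windows of Ms4a4c and Ms4a4b hold neither.
Ms4a6c, chr19:11469118-11469417, plus strand: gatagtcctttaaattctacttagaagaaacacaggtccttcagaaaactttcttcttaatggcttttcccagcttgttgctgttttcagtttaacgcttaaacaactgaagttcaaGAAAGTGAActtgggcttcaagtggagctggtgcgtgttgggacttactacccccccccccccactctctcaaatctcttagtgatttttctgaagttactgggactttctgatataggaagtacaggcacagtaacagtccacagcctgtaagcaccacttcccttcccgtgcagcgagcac
Ms4a6b, chr19:11518309-11518608, plus strand: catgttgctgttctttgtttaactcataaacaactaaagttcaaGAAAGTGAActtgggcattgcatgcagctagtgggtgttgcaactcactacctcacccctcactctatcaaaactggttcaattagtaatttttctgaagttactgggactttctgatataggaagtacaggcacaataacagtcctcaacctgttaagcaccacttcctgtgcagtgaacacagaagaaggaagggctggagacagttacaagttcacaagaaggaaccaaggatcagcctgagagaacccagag
Ms4a4c, chr19:11407411-11407710, plus strand: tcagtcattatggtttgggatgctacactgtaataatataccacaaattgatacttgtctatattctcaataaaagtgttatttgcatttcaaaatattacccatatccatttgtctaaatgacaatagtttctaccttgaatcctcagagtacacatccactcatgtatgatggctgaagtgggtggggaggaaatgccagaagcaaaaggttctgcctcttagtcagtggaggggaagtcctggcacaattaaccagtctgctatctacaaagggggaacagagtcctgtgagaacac
Ms4a4b, chr19:11443308-11443607, plus strand: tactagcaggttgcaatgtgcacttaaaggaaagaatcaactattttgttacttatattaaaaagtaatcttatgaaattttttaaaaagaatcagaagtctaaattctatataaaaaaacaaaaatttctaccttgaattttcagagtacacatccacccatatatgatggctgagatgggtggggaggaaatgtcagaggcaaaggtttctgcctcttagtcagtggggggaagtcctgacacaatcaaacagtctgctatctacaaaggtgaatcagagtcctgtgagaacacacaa
Ms4a4a, chr19:11375238-11375537, plus strand: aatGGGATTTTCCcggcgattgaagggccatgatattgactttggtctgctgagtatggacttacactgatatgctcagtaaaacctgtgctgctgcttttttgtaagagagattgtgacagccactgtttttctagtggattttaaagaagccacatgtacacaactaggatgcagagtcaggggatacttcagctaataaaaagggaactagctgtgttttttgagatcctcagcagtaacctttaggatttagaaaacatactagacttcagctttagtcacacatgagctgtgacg
The Ms4a6c and Ms4a6b windows were 85.9% identical over 220 aligned bases and shared an unbroken run of 48 bases. Those of Ms4a4c and Ms4a4b were 80.9% identical over 282 bases, with a shared run of 20. Each other pair of the 6 windows had at most 65.7% identity.

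The GAAANNGAA match began at -133 from the RefSeq start in Ms4a6c and at -206 in Ms4a6b, with the same letters in both, GAAAGTGAA. Each of 2 windows annotated for Ms4a7 held a match too, 1 of them on the reverse strand. Among all 32851 promoter windows of this length, 8.56% held it on either strand. The longer form with 1 more A at its end was in none of the members' windows and in 3.44% of all. The NF-kappaB pattern began at -247 from the Ms4a4a start and was in no other member's window, against 1.63% of all windows. The AP-1 pattern TGANTCA (7.81% of all windows) was in Ms4a4b and in a window of Ms4a7, and the TATA box TATAAA (13.6%) in Ms4a4b. The STAT pattern TTCNNNGAA (8.3%) and the PU.1 core GAGGAAG (13.6%) were in no member's window. Both strands were searched for each pattern, and the patterns shown were picked after the sequences had been read.

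Each library held 16172600 to 18886948 counts in genes. Dicer1, the deleted microRNA-processing enzyme, averaged 15.5 ± 1.10 CPM in Dicer KO LPS against 49.4 ± 2.84 in control LPS, and 19.7 ± 0.37 in Dicer KO vehicle against 43.7 ± 1.44 in control vehicle (SD, n = 3 each). CPM are counts per 1000000 counts of library size, with sizes scaled by edgeR's TMM method, which aligns the bulk of the genes. Lyz2, whose locus carries the Cre, was 215-fold lower in Dicer KO than in control with LPS and 405-fold lower with vehicle, although the titles give both genotypes as LysMcre/+. Names of the control files mark that locus as wildtype. Dicer deletion and any difference at the Lyz2 locus therefore cannot be told apart. All 9 macrophage markers were detected, with a summed level of 7183 to 10346 CPM per library. Among markers of other cells, Blk, Cd3d, Cd3e, Cd3g, Fcer1a, Mcpt4 and Lum had group means from 0 to 0.0466 CPM. Other markers were present, at summed levels that differed between groups. The 7 mast cell and basophil markers, of which 2 reached 1 CPM in a group, summed to 160 to 166 CPM in Dicer KO LPS, 61.0 to 67.5 in control LPS, 3.40 to 4.42 in Dicer KO vehicle and 1.13 to 1.96 in control vehicle. In the LPS groups nearly all of this was Hdc, the enzyme that makes histamine, with 161 CPM in Dicer KO and 63.0 in control. With vehicle Hdc had 2.30 CPM in Dicer KO and 0.627 in control, beside 1.44 and 0.825 CPM for Kit. The 11 neutrophil and granulocyte progenitor markers, 6 of them at 1 CPM or more, led by S100a9, S100a8 and Ngp, summed to 159 to 182, 149 to 161, 95.3 to 126 and 102 to 135 CPM in those groups. The 6 dendritic cell markers, 2 of them present (Ccr7 and Xcr1), summed to 16.6 to 17.8, 6.78 to 8.45, 2.52 to 4.42 and 1.18 to 1.54 CPM. The 7 B cell markers, 2 of them present (Cd22 and Cd79b), ran the other way, with 2.25 to 2.63, 3.51 to 4.71, 7.98 to 9.49 and 11.4 to 11.9 CPM. None of the 5 stromal markers reached 1 CPM. The part of these transcripts in the Ms4a values was not tested. The third replicate of control vehicle and the second of Dicer KO vehicle stood apart in their groups. Their counts differed from those of the others with a chi-square per degree of freedom of 7.87 to 13.2, against 2.43 and 2.21 for the remaining pairs.

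Summed over the 7 genes, Ms4a transcripts reached 5030 ± 51.8 CPM in Dicer KO LPS against 4073 ± 248 CPM in control LPS. The sum was 1571 ± 233 CPM in Dicer KO vehicle against 1192 ± 45.1 CPM in control vehicle (SD, n = 3 each). In bulk samples, more cells with a transcript and more of it per cell cannot be told apart. Genes were called where the adjusted p lay under 0.05 in edgeR's quasi-likelihood test, with Benjamini-Hochberg adjustment over 13837 genes. In vehicle, Dicer KO over control, 5 members were called higher and 2 lower, where 46.2% of all genes tested were called (25% higher, 21.2% lower). In LPS, Dicer KO over control, 4 were higher, 1 lower and 2 not called, against 55.8% of all genes (28.8% higher, 27% lower). LPS over vehicle gave 6 higher and 1 not called in Dicer KO cells, against 80.1% of all genes (37.4% higher, 42.7% lower). In control cells LPS over vehicle gave 6 higher and 1 lower, against 79.1% of all genes (38% higher, 41.1% lower). The median log2 fold change of the members was 0.71, 0.22, 1.61 and 1.84 in these 4 comparisons, against 0.01, -0.03, -0.10 and -0.06 over all genes.

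**Figure D1:**
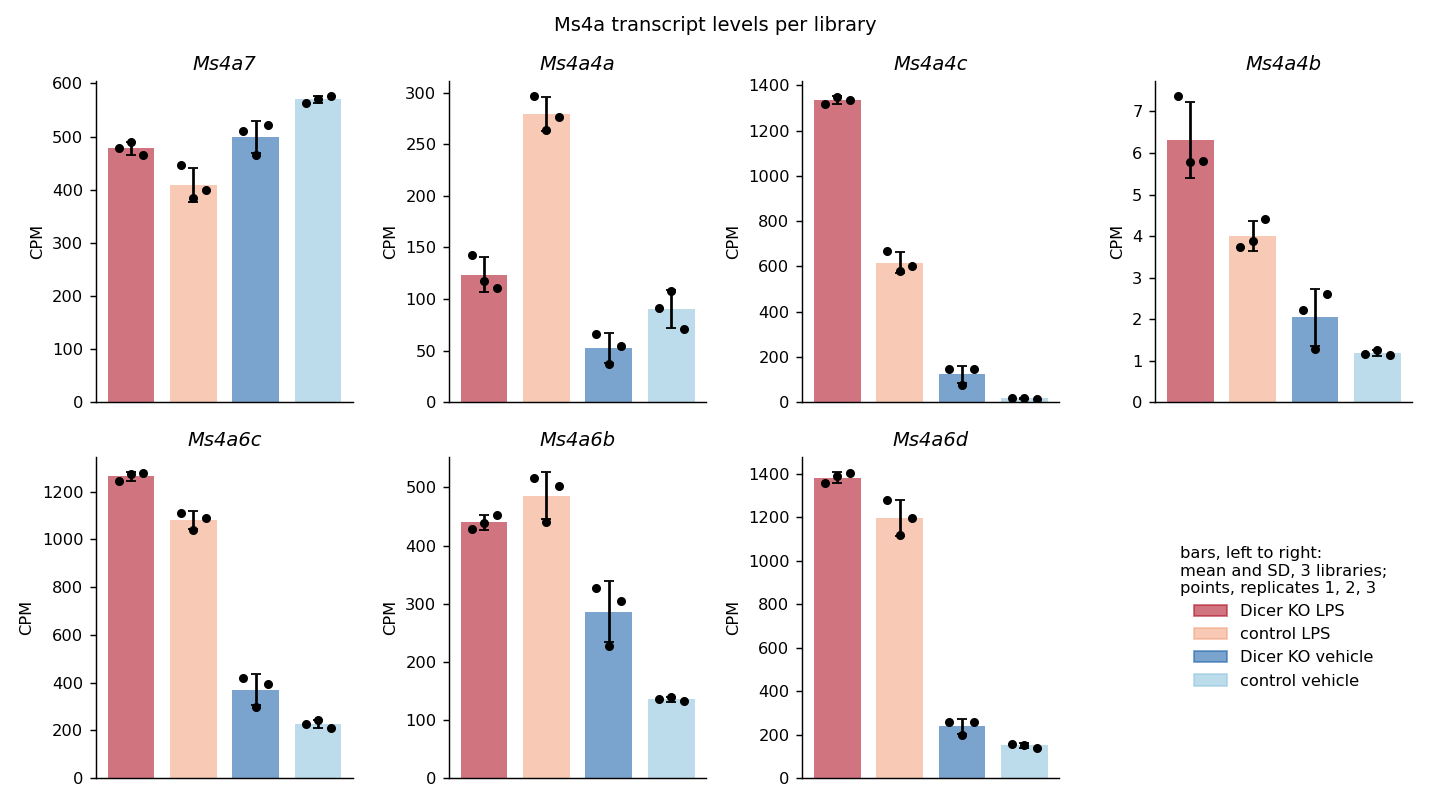
Level of each Ms4a gene in CPM (linear axis from 0, own scale per panel), with bars for the mean and SD of 3 libraries and points for replicates 1, 2 and 3. Ms4a4c runs from 16.8 CPM in a control vehicle library to 1350 CPM in a Dicer KO LPS library, Ms4a4a is lower in Dicer KO than in control with either treatment, and Ms4a7 is highest in control vehicle.

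Some of those directions depend on how libraries are scaled. Using plain library totals in place of TMM lowered the typical log2 fold change by 0.13 and 0.35 in the genotype comparisons of vehicle and LPS cells. The LPS responses moved down by 0.75 in Dicer KO and by 0.52 in control. With library totals the split of called genes became 2229 higher and 4577 lower in vehicle, against 3459 and 2935 with TMM, and 1885 higher and 7626 lower in LPS, against 3983 and 3741. The LPS response split became 2637 higher and 9623 lower in Dicer KO, against 5173 and 5905, and 3066 higher and 8737 lower in control, against 5258 and 5690. Members called for Dicer KO over control in LPS became 1 higher and 3 lower, against 4 and 1 with TMM. The family sums and medians above are from TMM alone. In LPS the lowering by 0.35 exceeds the members' median genotype difference of 0.22. Fold changes below are relative to the bulk of the genes under TMM. For genes given with their own fold change, each direction that flips with library totals is named with its value. Counts and medians below over neighbours and gene lists are from TMM alone, and directions of genes within them may flip without being named.

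Ms4a4c had the largest fold change of the 7 genes between genotypes in vehicle and with LPS in either genotype, while in LPS Ms4a4a differed slightly more between genotypes. Ms4a4c had 1316, 1350 and 1337 CPM in the Dicer KO LPS libraries, against 669, 579 and 604 CPM in control LPS. With vehicle it had 146, 78.5 and 146 CPM in Dicer KO, against 18.66, 19.02 and 16.80 CPM in control. The groups did not overlap, and the lowest of the Dicer KO vehicle libraries was replicate 2, which stood apart. Dicer KO over control was 2.77 ± 0.22 log2 units (SE) in vehicle, or 6.80-fold, with an edgeR adjusted p of 5.82e-06. Without both libraries that stood apart it was 2.95 log2 units. After LPS the difference was 1.11 ± 0.19 log2 units, or 2.16-fold, with an edgeR adjusted p of 0.000697. LPS raised Ms4a4c 10.8-fold in Dicer KO cells and 34.0-fold in control cells (edgeR adjusted p = 1.00e-07 and 1.06e-08). Of the exonic 50-base stretches of Ms4a4c, 8.19% also occur in other Ms4a genes, mostly Ms4a4b, so a small part of its reads may not have been placed uniquely.

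Ms4a4b, the close copy of Ms4a4c, is known from mouse T cells, where its protein associates with the receptor GITR. It was scarce, with 7.36, 5.78 and 5.80 CPM in Dicer KO LPS, against 3.73, 3.87 and 4.40 CPM in control LPS. With vehicle it had 2.23, 1.29 and 2.61 CPM in Dicer KO, against 1.17, 1.26 and 1.13 CPM in control, where the counts behind each value were 25 to 56 in Dicer KO and 27 to 31 in control. Dicer KO vehicle replicate 2 nearly met the highest control library. Dicer KO over control was 0.79 ± 0.23 log2 units in vehicle (edgeR adjusted p = 0.00977). It was 0.66 ± 0.18 in LPS (edgeR adjusted p = 0.00551). Leaving out Dicer KO vehicle replicate 3 ended the vehicle call, with an edgeR adjusted p of 0.0788, and library totals ended the LPS call, with 0.155. LPS raised Ms4a4b 3.06-fold in Dicer KO cells and 3.36-fold in control cells (edgeR adjusted p = 4.25e-07 and 6.33e-07). Of the exonic 50-base stretches of Ms4a4b, 2.24% also occur in other Ms4a genes, mostly the far more abundant Ms4a4c (1334 CPM in Dicer KO LPS). Whether misplaced Ms4a4c reads form part of the low Ms4a4b values was not tested.
Of 8 T and NK cell markers, 2 reached 1 CPM in a group. These were Lck, a Src family kinase, with 35.5 CPM in Dicer KO LPS, 13.9 in control LPS, 0.298 in Dicer KO vehicle and 0.286 in control vehicle, and Cd247, the T cell receptor zeta chain, with 19.02, 14.76, 6.56 and 6.84 CPM in the same groups. The defining markers Cd3d, Cd3e and Cd3g had 7, 2 and 3 counts over all 12 libraries. The summed level of the 8 markers was 51.9 to 56.4 CPM in Dicer KO LPS, 27.0 to 29.8 in control LPS, 6.47 to 7.67 in Dicer KO vehicle and 6.94 to 8.07 in control vehicle. Its part in the Ms4a4b values was not tested.

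Ms4a6b had 327, 228 and 304 CPM in Dicer KO vehicle, against 135, 140 and 132 CPM in control vehicle. After LPS it had 428, 439 and 453 CPM in Dicer KO, against 516, 440 and 503 CPM in control. The genotypes were thus apart in vehicle and overlapped in LPS. Dicer KO over control was 1.08 ± 0.11 log2 units in vehicle (2.11-fold, edgeR adjusted p = 2.67e-06), and 1.20 without both libraries that stood apart. In LPS it was -0.14 ± 0.10 (edgeR adjusted p = 0.262). The gene was called lower without both of those libraries, with -0.14 and an edgeR adjusted p of 0.0133, and with library totals, with -0.50. It was also called lower without Dicer KO vehicle replicate 2 alone (edgeR adjusted p = 0.0371). With only the groups compared it was called lower as well, with -0.17 (edgeR adjusted p = 0.0101). LPS raised Ms4a6b 1.54-fold in Dicer KO cells with TMM, a direction that flipped to -0.13 log2 units, uncalled, with library totals. The edgeR adjusted p with TMM was 8.87e-05. In control cells LPS raised it 3.58-fold (edgeR adjusted p = 1.25e-09).

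Ms4a6c and Ms4a6d were among the most abundant members after LPS. Ms4a6c had 1242, 1272 and 1276 CPM in Dicer KO LPS, against 1112, 1039 and 1088 CPM in control LPS, and 421, 297 and 392 CPM in Dicer KO vehicle, against 226, 243 and 211 CPM in control vehicle. Ms4a6d had 1356, 1389 and 1406 CPM in Dicer KO LPS, against 1282, 1119 and 1195 CPM in control LPS, and 257, 197 and 260 CPM in Dicer KO vehicle, against 157, 154 and 139 CPM in control vehicle. For both genes every Dicer KO library exceeded every control library of the same treatment. In vehicle, Dicer KO over control was 0.71 ± 0.10 log2 units for Ms4a6c (edgeR adjusted p = 2.94e-05). For Ms4a6d it was 0.67 ± 0.09 (edgeR adjusted p = 1.18e-05). Without both libraries that stood apart these were 0.79 and 0.73.
In LPS the genotype differences of both genes were small. Ms4a6c differed by 0.23 ± 0.10 log2 units, uncalled at an edgeR adjusted p of 0.0552, and Ms4a6d by 0.21 ± 0.09 at 0.0493, directions that flipped with library totals to -0.13 and -0.14, both uncalled. Leaving out Dicer KO vehicle replicate 1 or 2 brought Ms4a6c to edgeR adjusted p-values of 0.0259 and 0.00142. Ms4a6c was also called higher with DESeq2 size factors, at 0.28 (edgeR adjusted p = 0.0222), and in the DESeq2 Wald test (adjusted p = 0.0141). With only the groups compared it was called higher too, at 0.21 (edgeR adjusted p = 0.000327). Without both libraries that stood apart, both genes were called higher, with 0.23 for Ms4a6c and 0.21 for Ms4a6d (edgeR adjusted p = 3.53e-05 and 0.000169), so that 5 members were higher rather than 4. The Ms4a6d call ended on leaving out any of the Dicer KO LPS libraries, replicate 2 or 3 of control LPS, or replicate 1 or 2 of control vehicle, with adjusted p-values of 0.0573 to 0.210. LPS raised Ms4a6c 3.42-fold in Dicer KO cells and 4.76-fold in control cells, and Ms4a6d 5.82-fold in Dicer KO cells and 7.99-fold in control cells. The edgeR adjusted p-values of these 4 responses lay between 6.04e-15 and 9.93e-11.
Reads of Ms4a6c cannot be told from those of BE692007 without the strand setting. BE692007 is a transcript on the opposite strand that covers 53.1% of the Ms4a6c exon bases. It had log2 differences of 0.69 and 0.23 for Dicer KO over control in vehicle and LPS, close in value to those of Ms4a6c, and the LPS value likewise flipped to -0.12 with library totals.

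Ms4a4a, the gene whose protein associates with dectin-1, was lower in Dicer KO cells with either treatment. It had 143, 118 and 111 CPM in Dicer KO LPS, against 296, 264 and 277 CPM in control LPS. With vehicle it had 65.9, 36.8 and 54.9 CPM in Dicer KO, against 91.7, 108 and 71.4 CPM in control. No library of a genotype overlapped the other, with the smaller gap in vehicle, between 65.9 and 71.4 CPM. Dicer KO over control was -1.17 ± 0.21 log2 units in LPS (2.25-fold lower, edgeR adjusted p = 0.00114). It was -0.78 ± 0.22 in vehicle (1.72-fold lower, edgeR adjusted p = 0.0162) and -0.73 without both libraries that stood apart, and the call was lost without control vehicle replicate 2, with an edgeR adjusted p of 0.0568. LPS raised Ms4a4a 2.35-fold in Dicer KO cells, where library totals ended the call (edgeR adjusted p = 0.0594, against 0.000584 with TMM), and 3.08-fold in control cells (edgeR adjusted p = 6.56e-05). None of its exonic 50-base stretches occur in another gene.

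Ms4a7, known in mouse brain as a marker of macrophages of marrow origin and of the brain borders, had the smallest change of the 7 genes between genotypes in vehicle and with LPS in either genotype under TMM. It had 478, 490 and 466 CPM in Dicer KO LPS, against 445, 384 and 399 CPM in control LPS. With vehicle it had 510, 466 and 522 CPM in Dicer KO, against 564, 570 and 575 CPM in control. Dicer KO was thus the lower genotype in vehicle and the higher one in LPS, with no overlap between genotypes in either, while LPS and vehicle libraries of Dicer KO overlapped. The difference was -0.19 ± 0.06 log2 units in vehicle (edgeR adjusted p = 0.0149), and leaving out the second Dicer KO vehicle replicate ended the call, with 0.0682. Leaving out both libraries that stood apart kept it, with -0.13 and an edgeR adjusted p of 0.0495. In LPS it was 0.22 ± 0.06 (edgeR adjusted p = 0.00417), a direction that reversed to a called -0.13 with library totals. LPS lowered Ms4a7 1.39-fold in control cells (edgeR adjusted p = 7.92e-07). In Dicer KO cells the LPS difference was -0.06 ± 0.06 log2 units with an edgeR adjusted p of 0.346. That direction flipped to 0.0162 with DESeq2 size factors, and the difference was called with library totals, at -0.81, and without both libraries that stood apart, at -0.11.

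**Figure D2:**
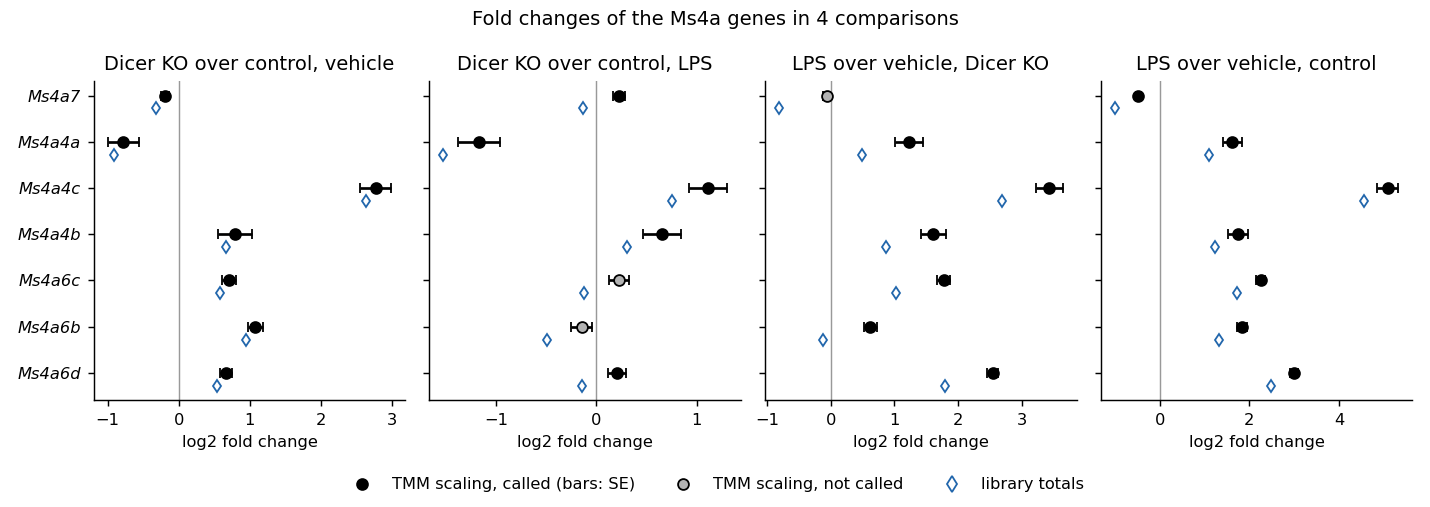
Log2 fold changes of the 7 genes in 4 comparisons (x axes differ in range), as circles with SE from the TMM-scaled fit, filled black where called and grey where not, and as open diamonds with library totals. Ms4a4c lies farthest right in each panel, and in the LPS genotype panel Ms4a7, Ms4a6c and Ms4a6d change side between the scalings.

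The LPS response differed between genotypes for 5 of the 7 members, where 33.7% of all genes were called (14.9% higher, 18.8% lower in Dicer KO). This interaction is the LPS response in Dicer KO minus that in control, in log2 units. It was -1.65 ± 0.29 for Ms4a4c (edgeR adjusted p = 0.00171) and -1.22 ± 0.15 for Ms4a6b (edgeR adjusted p = 3.46e-05). It was -0.48 ± 0.14 for Ms4a6c (edgeR adjusted p = 0.0131) and -0.46 ± 0.12 for Ms4a6d (edgeR adjusted p = 0.00819). These 4 genes had the smaller response in the cells where their vehicle level was the higher. Ms4a7 went the other way, with 0.41 ± 0.09 (edgeR adjusted p = 0.00105), and library totals ended that call, with 0.19 and 0.0550. Ms4a4a, with -0.39 ± 0.30, and Ms4a4b, with -0.14 ± 0.29, were not called, and the Ms4a4b value turned to 0.075 without Dicer KO vehicle replicate 3. Without both libraries that stood apart the called values were -1.84, -1.34, -0.57, -0.53 and 0.36 for Ms4a4c, Ms4a6b, Ms4a6c, Ms4a6d and Ms4a7, all still called. With library totals 997 genes had a higher and 5136 a lower interaction, against 2067 and 2602 with TMM. The LPS responses in Dicer KO without both libraries were 3.19 log2 units for Ms4a4c, 1.38 for Ms4a4b, 0.48 for Ms4a6b, 1.63 for Ms4a6c, 2.42 for Ms4a6d and 1.03 for Ms4a4a, and each kept its call. The comparisons within and between genotypes share libraries, so each member's values across them are not independent.

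**Figure D3:**
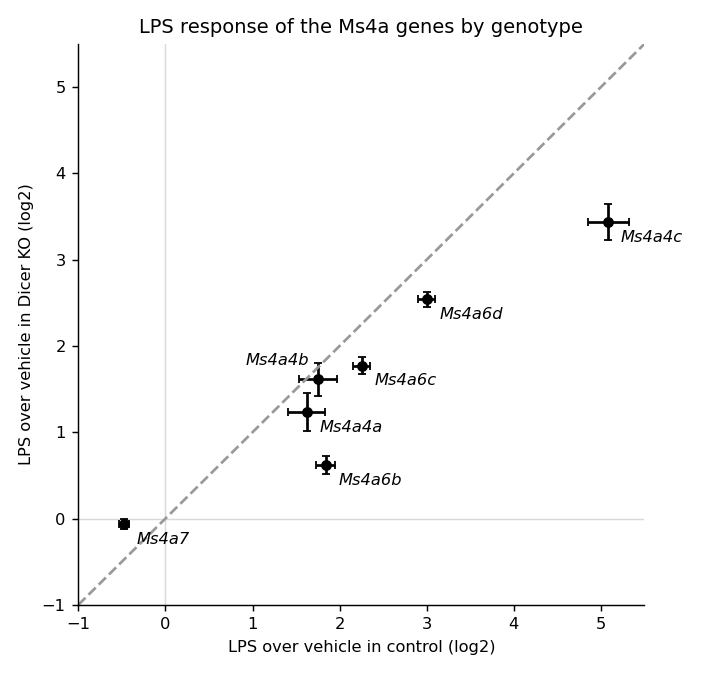
LPS over vehicle in Dicer KO cells (y axis) against the same in control cells (x axis), both log2 fold changes with SE bars, 1 point per gene and a dashed line of equal response. Ms4a4c and Ms4a6b lie farthest below the line, and Ms4a7 lies above it.

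Per kilobase of exon, the order of the members changed with treatment. In Dicer KO LPS, Ms4a6d stood at 798 ± 14.5 CPM per kb, Ms4a4c at 762 ± 9.87 and Ms4a6c at 616 ± 8.92, against 148 or less for each of the others. In control LPS, Ms4a6d stood at 691 ± 47.1 and Ms4a6c at 527 ± 18.1, followed by Ms4a4c at 353 ± 26.6 and Ms4a4a at 334 ± 19.7, whose replicate ranges overlapped. With vehicle, Ms4a6c led in Dicer KO, at 180 ± 31.7, before Ms4a6d at 137 ± 20.2 and Ms4a7 at 112 ± 6.63, each overlapping the next. Ms4a4c, Ms4a6b and Ms4a4a lay close together there, at 70.5 ± 22.2, 63.8 ± 11.6 and 62.8 ± 17.6, within their spread. In control vehicle, Ms4a7 led at 128 ± 1.31, before Ms4a6c at 111 ± 7.91, Ms4a4a at 108 ± 22.1 and Ms4a6d at 86.4 ± 5.59. The range of Ms4a4a there overlapped those of the other leading genes. Ms4a4c reached only 10.4 ± 0.68 and Ms4a4b 0.135 ± 0.008. Ms4a4b was the lowest in all 4 groups.
The place of Ms4a7 depends on its length, 4453 exonic bases in all but 1576 in its longest coding transcript. By that transcript length it stood at 317 ± 18.7 CPM per kb in Dicer KO vehicle and 361 ± 3.71 in control vehicle, the highest member in both.

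**Figure D4:**
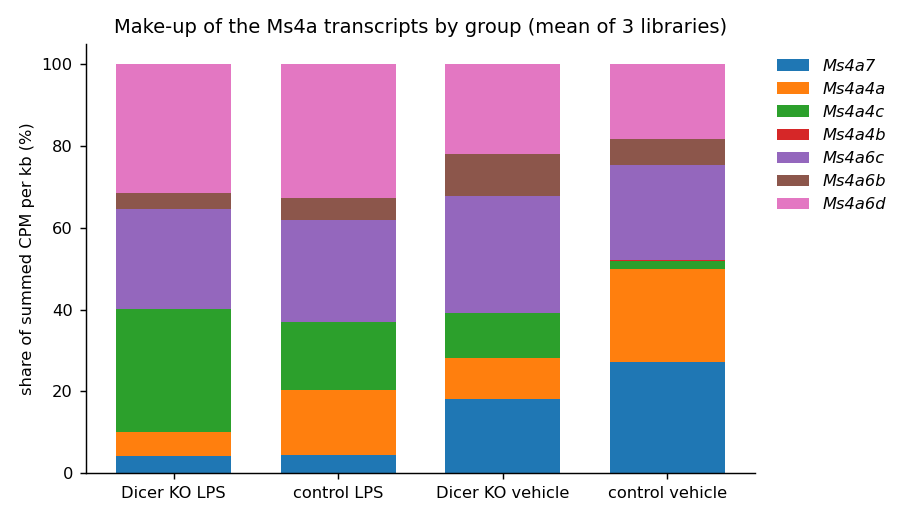
Share of each gene in the summed CPM per kb of the 7 genes (stacked bars adding to 100%, mean of 3 libraries in each group). Ms4a4c holds 30.1% in Dicer KO LPS, 16.7% in control LPS, 11.04% in Dicer KO vehicle and 2.19% in control vehicle, while Ms4a7 holds 4.24%, 4.37%, 18.2% and 27.1%.

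As shares of that summed level, Ms4a4a held 5.85 ± 0.83% in Dicer KO LPS against 15.9 ± 0.07% in control LPS, and 9.90 ± 1.24% in Dicer KO vehicle against 22.7 ± 3.00% in control vehicle. Ms4a6c stayed between 23.3% and 28.8% in all 4 groups. Shares depend on dividing by length. In plain CPM, Ms4a4a held 2.46% in Dicer KO LPS, 6.85% in control LPS, 3.30% in Dicer KO vehicle and 7.56% in control vehicle, still lower in Dicer KO. Ms4a7 then held 9.50%, 10.04%, 32.1% and 47.9% in those groups. Over the 12 libraries, Pearson's r of log2(CPM + 1) between Ms4a6c and Ms4a6d was 0.996, and between Ms4a4c and Ms4a6c 0.980. The pairs closest in coding sequence had 0.965 (Ms4a4c and Ms4a4b) and 0.942 (Ms4a6c and Ms4a6b). Ms4a7 had negative values with every other member, from -0.81 with Ms4a6b to -0.60 with Ms4a4b. Ms4a4a had 0.53 with Ms4a4c and 0.72 with Ms4a6d. The libraries share the 4 group means, so these values describe the groups as much as single libraries.

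By the same measure, the genes most like each member in pattern were listed, 5 for each. For Ms4a4c they were Sp110 (0.999), Isg20, Ifi209, Phf11a and Trim30a. For Ms4a6b they were Dck (0.990), Slfn1, Ifi211, Zbp1 and Trim30d. For Ms4a6c, after the overlapping BE692007 (0.999), they were Ass1, Gbp5, Isoc1 and D17Wsu92e, and for Ms4a6d Fam241a (0.998), Fam20b, Pttg1, Atg9a and D17Wsu92e. For Ms4a4a they were Mtmr3 (0.985), Ptch1, Mnat1, H2-Ab1 and Acvrl1. For Ms4a4b they were Il12rb1 (0.991), Khdc4, Nsmaf, Mtor and Ubr4, and for Ms4a7 Pkig (0.968), Cep89, Tmem173, Htr2b and Supt4a. These lists changed for all 7 members with Spearman's rho in place of Pearson's r. With Ms4a6b, rho was 0.80 for Slfn1, 0.81 for Ifi211, 0.78 for Zbp1 and 0.81 for Trim30d.

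Of the 12 other Ms4a genes, 2 passed the filter. Ms4a14 had 68.9, 69.2 and 72.6 CPM in Dicer KO LPS, against 31.2, 26.1 and 33.9 CPM in control LPS. With vehicle it had 85.7, 73.0 and 79.4 CPM in Dicer KO, against 49.7, 56.0 and 59.3 CPM in control. Every Dicer KO library lay above every control library of the same treatment. Dicer KO over control was 1.21 ± 0.09 log2 units in LPS (edgeR adjusted p = 6.68e-09) and 0.53 ± 0.08 in vehicle (edgeR adjusted p = 5.40e-05). LPS lowered Ms4a14 1.81-fold in control cells, with an interaction of 0.68 ± 0.12 (edgeR adjusted p = 0.000376). In Dicer KO cells its LPS difference, -0.18 ± 0.08, was not called (edgeR adjusted p = 0.0585), but it was without both libraries that stood apart, at -0.24, and with library totals, at -0.92.
Ms4a4d was near the detection limit, with 28 counts over the Dicer KO LPS libraries, 40 over control LPS, 4 over Dicer KO vehicle and 2 over control vehicle. It was called higher with LPS in both genotypes (edgeR adjusted p = 8.89e-05 in Dicer KO and 2.92e-06 in control) and not between genotypes. The other 10 were not tested, and 3 of them, Ms4a5, Ms4a10 and Ms4a13, had 0 counts. Ms4a1, encoding CD20, had 11 counts over all 12 libraries and Ms4a2, the IgE receptor chain, had 6. Ms4a3, which in mouse marks progenitors of granulocytes and monocytes, had the most of the 10, with 29 counts over Dicer KO LPS, 8 over control LPS, 11 over Dicer KO vehicle and 12 over control vehicle.

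**Figure D5:**
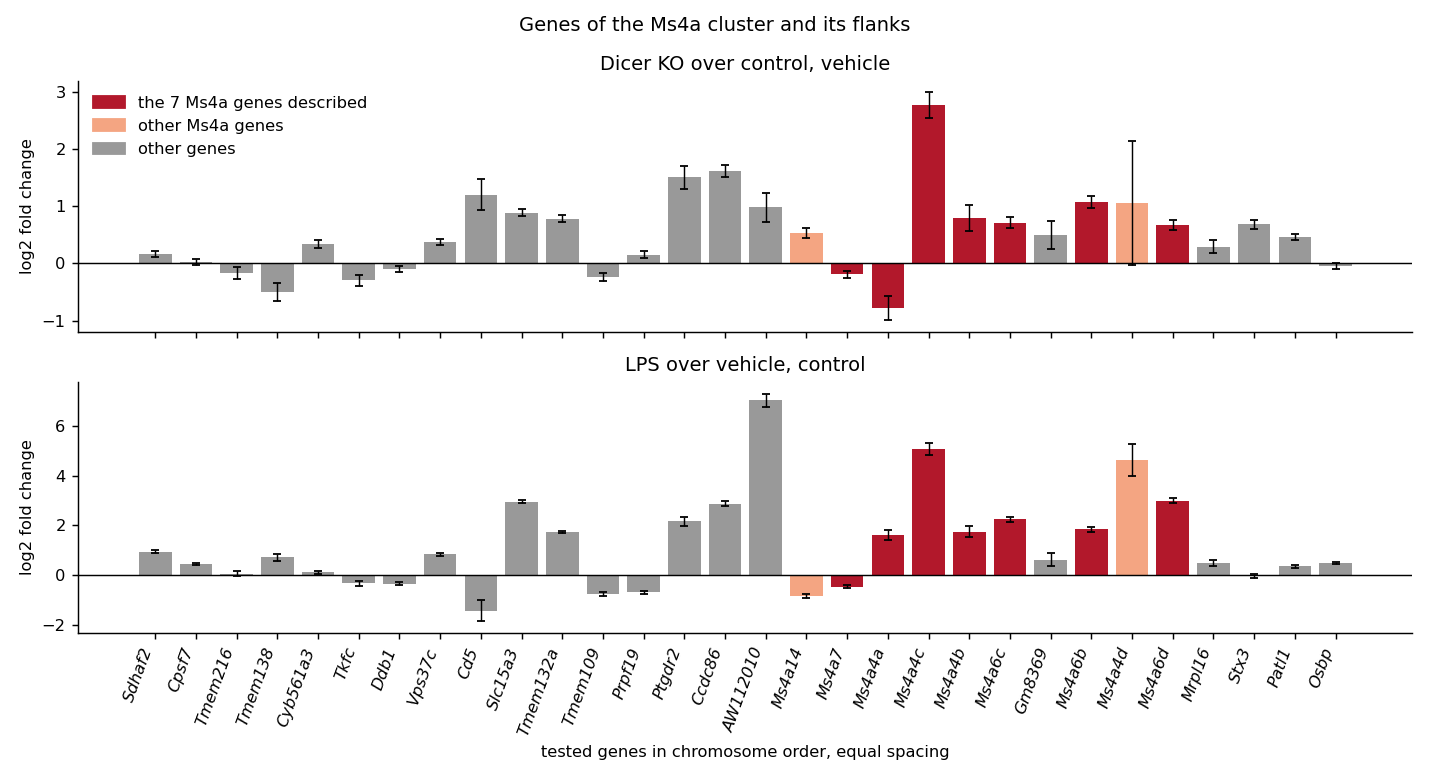
Log2 fold change with SE of the tested protein-coding genes of the Ms4a cluster and its flanks, and of AW112010, in chromosome order with equal spacing, for Dicer KO over control in vehicle (upper) and LPS over vehicle in control (lower). Red bars are the 7 genes, light orange Ms4a14 and Ms4a4d, and grey other genes. In the upper panel Ms4a4c stands at 2.77 beside Ms4a4a at -0.78.

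Inside the cluster lies AW112010, a long noncoding RNA, which averaged 1966 ± 216 CPM in Dicer KO LPS against 1367 ± 123 in control LPS, and 20.1 ± 7.47 in Dicer KO vehicle against 10.2 ± 1.16 in control vehicle (SD, n = 3 each). LPS raised it 97.3-fold in Dicer KO and 133-fold in control. Its genotype difference was 0.98 ± 0.26 log2 units in vehicle (edgeR adjusted p = 0.0117). In LPS it was 0.52 ± 0.20 (edgeR adjusted p = 0.0455), a call lost with library totals. Of 19 tested protein-coding genes within 500 kb of the cluster, 11 were called higher and 3 lower for Dicer KO over control in vehicle, and 8 and 6 in LPS. Over all genes 46.2% were called in vehicle (25% higher, 21.2% lower) and 55.8% in LPS (28.8% higher, 27% lower). Whether the neighbours differ from other genes was not tested. Those higher in vehicle were Ccdc86, by 1.62 log2 units, Ptgdr2, the prostaglandin D2 receptor CRTH2, by 1.501, Cd5 by 1.20 and Slc15a3, a lysosomal histidine and peptide transporter, by 0.88. The others were Tmem132a at 0.78, Stx3 at 0.68, Patl1 at 0.46, Vps37c at 0.38, Cyb561a3 at 0.34, Mrpl16 at 0.29 and Sdhaf2 at 0.16. Tmem138, at -0.50, Tkfc, at -0.30, and Tmem109, at -0.24, were lower. With LPS over vehicle 11 of the 19 were higher and 5 lower in each genotype. Over all genes 80.1% were called in Dicer KO (37.4% higher, 42.7% lower) and 79.1% in control (38% higher, 41.1% lower). Gm8369, the only tested protein-coding gene inside the cluster that is not named Ms4a, was not called between genotypes.

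Genes of proteins that resemble or bind Ms4a members were called about as often as other genes in vehicle. Of 10 tested, 4 were higher and 1 lower in Dicer KO than in control with vehicle, and 6 were higher and 4 lower with LPS. Over all genes 25% were higher and 21.2% lower with vehicle, and 28.8% and 27% with LPS. Clec7a, encoding the Ms4a4a partner dectin-1, was higher in Dicer KO by 0.90 ± 0.05 log2 units in vehicle (edgeR adjusted p = 2.59e-10). In LPS it was higher by 1.25 ± 0.07 (edgeR adjusted p = 6.88e-11), so Clec7a and Ms4a4a differed in opposite directions. Trem2, a lipid-sensing receptor of macrophages and microglia, was higher in Dicer KO by 0.49 ± 0.06 in LPS (edgeR adjusted p = 6.54e-07). In vehicle it differed by 0.13 ± 0.06 (edgeR adjusted p = 0.0615). Its adaptor Tyrobp differed by 0.02 ± 0.05 in vehicle, uncalled, and 0.21 ± 0.05 in LPS (edgeR adjusted p = 0.00208), directions that flipped with library totals to -0.11 and -0.14, the LPS value called.
Tmem176a and Tmem176b, tetraspan relatives of the Ms4a proteins, were lower in Dicer KO with LPS, by -0.95 ± 0.08 and -0.37 ± 0.07 log2 units (edgeR adjusted p = 7.24e-08 and 0.000205). In vehicle Tmem176a differed by 0.18 ± 0.11, uncalled, and Tmem176b was higher by 0.45 ± 0.07 (edgeR adjusted p = 0.000107). LPS raised Tmem176a 4.41-fold in Dicer KO and 9.67-fold in control. In Dicer KO 4 of the 10 genes were higher and 6 lower with LPS, against 37.4% and 42.7% of all genes. In control 4 were higher and 4 lower, against 38% and 41.1%. The interaction was called higher for 4 and lower for 3, against 14.9% and 18.8% of all genes.

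All 20 interferon-stimulated genes were called higher in Dicer KO than in control with vehicle and with LPS, and higher with LPS in both genotypes. Their median differences were 2.39, 0.98, 1.98 and 3.37 log2 units in those comparisons. Over all genes 25%, 28.8%, 37.4% and 38% were called higher in the same comparisons. In the interaction, where 18.8% of all genes were lower, 18 of the 20 were lower, with a median of -1.31. Their mean level, as log2(CPM + 1), was 10.7 in each Dicer KO LPS library and 9.43 to 9.60 in control LPS. It was 8.58, 8.10 and 8.50 in Dicer KO vehicle replicates 1, 2 and 3, and 5.82 to 6.09 in control vehicle. Replicate 2, the lowest there, was also the lowest Dicer KO vehicle library for each of the 7 Ms4a genes. That library stood apart from its group, and it was the lowest for AW112010, Lyz2 and Apoe too, though not for Dicer1. The share of all genes lowest in it was not computed. The part of the interferon level in the Ms4a values was not tested.
Of 17 NF-kappaB targets, 7 were higher and 3 lower in Dicer KO with vehicle, and 12 higher and 1 lower with LPS. The shares of all genes were 25% higher and 21.2% lower with vehicle, and 28.8% and 27% with LPS. All 17 were higher with LPS in both genotypes, against 37.4% of all genes in Dicer KO and 38% in control. The interaction was higher for 6 of the 17 and lower for 4, against 14.9% and 18.8% of all genes. Of 11 tested genes linked to glucocorticoids and IL-4, states in which human MS4A4A is described, 1 was higher and 3 lower in Dicer KO with vehicle, and 3 and 3 with LPS. Those shares are no higher than the 46.2% and 55.8% called over all genes. Cd163, the haemoglobin scavenger receptor, was lower in Dicer KO by -1.75 ± 0.11 log2 units in vehicle (edgeR adjusted p = 8.28e-10). Mrc1, the mannose receptor, was lower by -0.68 ± 0.06 (edgeR adjusted p = 7.47e-08). The glucocorticoid targets Fkbp5 and Tsc22d3 went opposite ways, with 0.52 ± 0.09 and -0.43 ± 0.08 (edgeR adjusted p = 0.000177 and 0.000283). With LPS over vehicle, 3 of the 11 were higher and 7 lower in Dicer KO, against 37.4% and 42.7% of all genes. In control 3 were higher and 6 lower, against 38% and 41.1%. The interaction was higher for 3 and lower for 1, against 14.9% and 18.8% of all genes.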

How the data were processed

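Whole-number read counts per Ensembl gene, 1 file per library, were deposited by the authors. Per the submitters' processing notes, STAR 2.5, DESeq2 and the builds mm10 and GRCm38.p5 were used. The counting program, with its strand setting, was not given in the sources used here. Of all reads, 45.8 to 46.8% were assigned to no gene feature, and those rows were left out. Without the strand setting, it is not known whether these include reads from the opposite strand of a gene. GENCODE M21 supplied symbols and GRCm38 coordinates, matching 45143 of 46078 identifiers. The count model was edgeR 4.0.16 under R 4.3.3: filterByExpr left 13837 genes, TMM scaling was used, and a robust quasi-likelihood model had 1 mean per group over 12 libraries. All tests were two-sided, with Benjamini-Hochberg adjustment within each of 5 comparisons. The model was also run on counts simulated from its own dispersion estimates, which cannot test the scaling or the libraries that stood apart. The 3 libraries per group limit the precision. DESeq2 1.42.0, library totals, no filter, a replicate block and leaving out libraries were alternatives. Named were the 7 members, other Ms4a genes passing the filter, neighbours within 500 kb, genes alike in pattern with at least 5 CPM, and up to 4 genes of each list. The members and lists were chosen with earlier results of these data known. Sequence comparisons used Biopython 1.88.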

Additional observations from a re-analysis of the deposited data

Results flagged for a closer look

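The LPS response of 6 Ms4a genes was picked out because it differed between Dicer KO and control cells by a test of the difference itself, edgeR's interaction term. Over all genes 33.7% were called in that test. The response in Dicer KO minus that in control was -1.65 log2 units for Ms4a4c, -1.22 for Ms4a6b, -0.48 for Ms4a6c and -0.46 for Ms4a6d. It was 0.41 for Ms4a7 and 0.68 for Ms4a14. All 3 Dicer KO vehicle libraries lay above all 3 control vehicle libraries for the genes with a smaller response, and for Ms4a14. For Ms4a7 all 3 lay below. The vehicle libraries are part of the interaction, so their order is no separate evidence for it. The share of all genes separated in this way was not computed.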

How the results depend on the processing

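With library totals, genes called higher and lower for Dicer KO over control numbered 2229 and 4577 in vehicle and 1885 and 7626 in LPS. For LPS over vehicle they numbered 2637 and 9623 in Dicer KO and 3066 and 8737 in control, and 997 and 5136 for the interaction, against 2067 and 2602 with TMM. Members called for Dicer KO over control in LPS became 1 higher and 3 lower, 1 became lower for LPS over vehicle in Dicer KO, and 0 had a higher interaction. Directions reversed with library totals in LPS, Dicer KO over control, for Ms4a7 (-0.13), Ms4a6c (-0.13), Ms4a6d (-0.14), BE692007 (-0.12) and Tyrobp (-0.14), in vehicle for Tyrobp (-0.11), and for LPS over vehicle in Dicer KO for Ms4a6b (-0.13). These shifts follow from the scaling itself. For the rest the cause was not tested. Ms4a7 in LPS over vehicle, Dicer KO, reversed to 0.0162 with DESeq2 size factors and with the DESeq2 test, and Tyrobp in vehicle to -0.014 with no filter. Leaving out 1 library gave -0.13 to 1.56 for Ms4a4d in vehicle and -0.47 to 0.048 in LPS, Dicer KO over control, and -0.37 to 0.075 for the Ms4a4b interaction. The reversals came without replicate 3 of Dicer KO vehicle or, for Ms4a4d in LPS, of Dicer KO LPS. Leaving out 1 library gave 1 to 2 members lower in vehicle and 1 to 2 lower in LPS, Dicer KO over control, where 2 and 1 were lower with all libraries. In that LPS comparison 2 members were lower with only the groups compared and 2 without both libraries that stood apart. Without both, 1 member was lower for LPS over vehicle in Dicer KO. In their deviations from the group means, 4 of 18 same-numbered pairs of libraries correlated over 0.1, with a range from -0.23 to 0.18. Differently numbered pairs were not set beside them, so these values cannot decide whether replicate numbers pair the samples. With the replicate block, 3431 genes were higher and 2879 lower in vehicle, Dicer KO over control, and the members' counts were those without it. Counts limit Ms4a4b and Ms4a4d most.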
